A study of Homo sapiens with 6 samples.

Results

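The semaphorin, Slit, netrin and ephrin guidance genes studied here are 36 genes that were picked by name and looked up in RNA-seq read counts of MDA-MB-231 cells, a human cell line of triple-negative breast cancer. They comprise 10 semaphorins, 8 plexins and neuropilins, 5 genes of the Slit and Robo system, 4 of the netrin system, 5 ephrins and 4 Eph receptors. All 36 were found among the 41471 gene symbols of the knockdown experiment and the 34157 of the Reb experiment. A mean CPM (the count scaled to a common library size) of 1 or more over an experiment's 3 libraries was reached by 30 of them among 15295 genes in the knockdown experiment and by 33 among 15655 genes in the Reb experiment, and these are the members counted below. SLIT3, NTN1 and UNC5B did not reach it in either experiment, and SEMA3F, PLXNB1 and EFNA1 did not in the knockdown experiment.

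In the first experiment the cells carried a lentiviral scramble shRNA, CDK16-sh1 or CDK16-sh2, hairpins directed against the kinase CDK16, as stable lines sorted by FACS. In the second, cells received DMSO or rebastinib (Reb) at 1 μM or 5 μM for 48 h. Reb is a kinase inhibitor that the study used against CDK16 and that is also known to act on ABL and TIE2. Each of the 6 conditions had 1 library and each hairpin 1 line, so no difference between conditions has a replicate check, and a difference between lines cannot be told apart from a difference between hairpins.

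Guidance genes were named for steering growing axons, and the same proteins act in vessel growth, epithelial sorting and tumour cell movement. Semaphorins signal through plexins, with neuropilins as co-receptors for the secreted class. Slits bind Robo receptors, netrins bind DCC, neogenin and UNC5 receptors, and ephrins on a cell surface bind Eph receptor tyrosine kinases on a neighbouring cell, so that signals can pass in both directions.

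Total counts ranged from 25838443 to 50303269 per library. The counts of CDK16 were 3223 in scramble, 1360 with CDK16-sh1 and 846 with CDK16-sh2, and in the Reb experiment 4996 for DMSO, 4609 at the lower and 2797 at the higher dose. Scaled by TMM, its log2 fold changes were −1.52 and −1.82 in the hairpin libraries. In the Reb libraries they were −0.14 at 1 μM and 0.27 (interval 0.20 to 0.34) at 5 μM. Scaling by library totals instead moves the median of all genes at 5 μM by −0.68. That shift is larger than the 0.27 of CDK16, so the sign of this value depends on the scaling. Mitochondrial transcripts took 7.19% to 11.3% of the counts in 4 libraries, 16.2% in CDK16-sh2 and 16.4% at 5 μM. Of the line's markers, VIM, CD44 and AXL had at least 8803 counts in every library, while CAV1 had 3420 to 5911 counts in 5 libraries and 607 at 5 μM. From DMSO to 5 μM the counts of VIM went from 91270 to 34429 and those of AXL from 25169 to 8803. Those of CD44 were 17339 and 16817 and those of EPCAM 240 and 408. The totals of these 2 libraries were 50303269 and 37655548 counts. The genes ESR1, PGR, FOXA1 and CDH1 were near 0 in every library, while ERBB2, GATA3 and EPCAM were low but present. Neuronal markers (RBFOX3, SYN1 and SNAP25) summed to 11 to 93 counts and immune markers (PTPRC, CD3E and CD79A) to 0 to 51. The 3 endothelial markers summed to 21 to 92 counts in the knockdown libraries and to 280, 96 and 15 counts at DMSO, 1 μM and 5 μM, with VWF at 0 at 5 μM. Of the fibroblast markers, DCN had 0 counts in the knockdown libraries, COL1A1 and PDGFRB summed to 413 to 608 counts there and to 1278, 1580 and 448 counts in the Reb libraries, and GFAP, for glia, had 10 to 74 counts in all libraries. The part of these markers in the results below was not tested. In bulk RNA, fewer cells of a kind and less RNA per cell cannot be told apart.

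The cells carried a broad set of guidance receptors and fewer ligands at high level. On the RPKM scale, which divides the count by gene length and library total, EPHA2 had the highest level of the 36 in both control libraries, 62.0 in scramble and 42.7 in DMSO. PLXNB2, a receptor for class 4 semaphorins, followed with 33.3 and 24.9. In scramble, PLXNA1 (21.6), NRP1 (19.2) and SEMA7A (15.9) came next, and in DMSO, SEMA7A (22.1), NRP1 (15.2) and EPHB2 (10.3). SLIT3, NTN1 and UNC5B stood at the other end, with 0 to 37 counts in any library. The neighbours in this order have no replicate error to separate them, and the tables of the experiments were normalized separately, so levels were not compared between them. Together the 36 genes held 0.181% of the counts of scramble and of CDK16-sh1 and 0.120% with CDK16-sh2, and 0.149%, 0.145% and 0.0464% in DMSO, 1 μM and 5 μM.

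**Figure D1:**
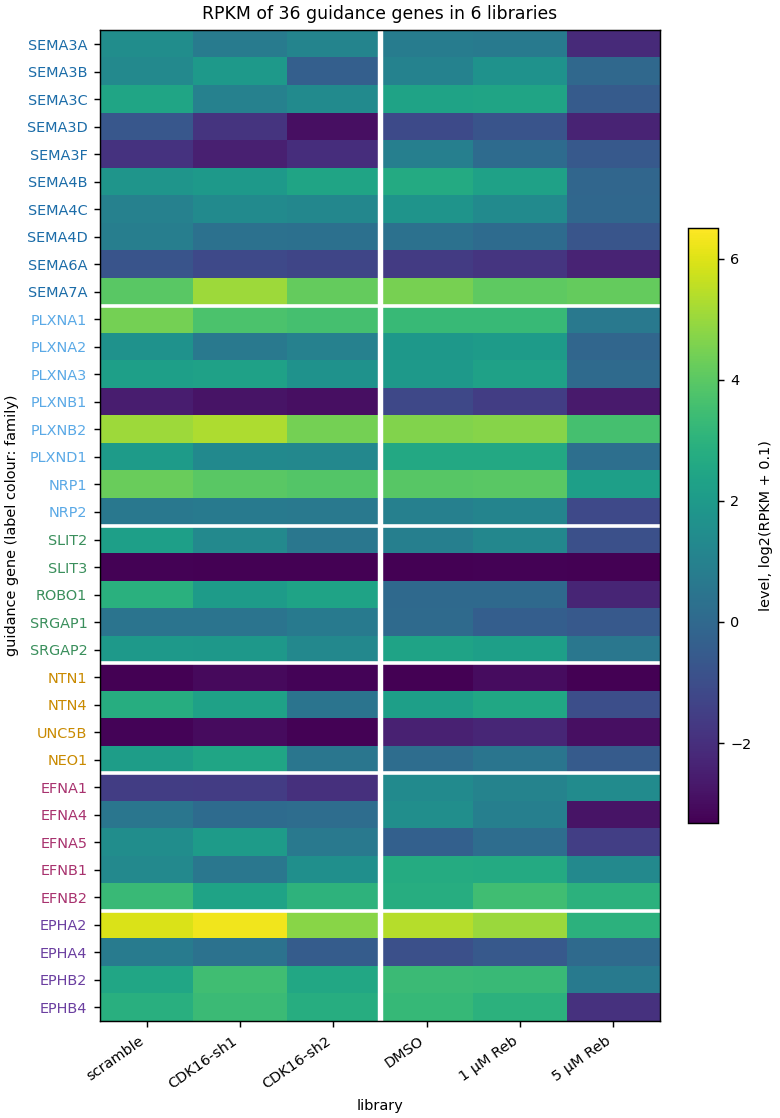
Levels of the 36 guidance genes (rows, label colour by family) in the 6 libraries (columns), as log2 of RPKM plus 0.1, where yellow is high and dark blue is low. EPHA2, PLXNB2, SEMA7A and NRP1 are bright in the control libraries, and many rows are darker in the 5 μM Reb column.

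Promoter sequences are shown for 3 members on which the results turn: EPHB4, the lowest at 5 μM Reb; EPHA4, the sole member higher by 2-fold there; and SEMA3D, the lowest in CDK16-sh2. They are RefSeq windows on GRCh38.p14, from 250 bases before to 50 bases after a transcription start, written 5′ to 3′ on the gene's strand, with capitals marking matches to the GC box GGGCGG on either strand, the hexamer bound by SP and KLF factors.
EPHB4 (chr7:100827474-100827773, minus strand): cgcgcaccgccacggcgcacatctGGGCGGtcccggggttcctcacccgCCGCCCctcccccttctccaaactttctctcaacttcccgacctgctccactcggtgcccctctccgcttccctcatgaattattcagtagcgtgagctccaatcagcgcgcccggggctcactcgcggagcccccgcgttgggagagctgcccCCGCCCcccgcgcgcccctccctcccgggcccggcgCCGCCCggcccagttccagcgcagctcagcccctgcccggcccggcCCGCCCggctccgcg
EPHA4 (chr2:221572255-221572554, minus strand): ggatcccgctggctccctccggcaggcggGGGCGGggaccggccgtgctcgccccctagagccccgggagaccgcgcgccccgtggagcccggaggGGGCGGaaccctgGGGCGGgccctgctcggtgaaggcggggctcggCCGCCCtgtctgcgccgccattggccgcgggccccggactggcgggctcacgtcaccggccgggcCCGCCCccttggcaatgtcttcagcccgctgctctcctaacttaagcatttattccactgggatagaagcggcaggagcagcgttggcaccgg
SEMA3D (chr7:85187007-85187306, minus strand): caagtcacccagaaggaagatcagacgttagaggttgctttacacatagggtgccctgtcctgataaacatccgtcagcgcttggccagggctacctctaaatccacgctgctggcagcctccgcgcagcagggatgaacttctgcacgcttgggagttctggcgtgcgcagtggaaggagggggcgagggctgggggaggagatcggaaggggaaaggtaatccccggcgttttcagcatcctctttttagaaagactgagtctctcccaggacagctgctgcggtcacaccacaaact

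The EPHB4 and EPHA4 windows printed have 5 GC boxes each and the same GC content, 74.3%. The SEMA3D window has none and a GC content of 57.0%. The start of SEMA3D in the count tables, at 85186855, lies outside this window, on its downstream side. A second EPHA4 start, at chr2:221574153-221574452, has 1 GC box and a GC content of 43.0%, and the gene's start in the count tables lies in that window. RefSeq windows were matched for 31 of the 36 members, 46 windows in all, with none for SEMA3A, SEMA6A, NRP1, NTN1 and UNC5B. Their median GC content was 70.2%, against 58.7% over 35116 windows of all genes, and the median number of CpG dinucleotides was 28.5 against 14. The GC box was found in 80.4% of the members' windows, at 29 of 31 genes, against 45.0% of all windows. The TEAD motif GGAATG was found in 15.2% against 14.0% and the E-box CACCTG in 15.2% against 20.6%. The AP-1 motif TGACTCA, held by 4.9% of all windows, and the E2F motifs TTTGGCGC and TTTCGCGC, held by 1.1%, were not found in any of the 46. Motifs were searched on both strands, and a GC box match can overlap another GC box. These matches describe letters and say nothing of binding.

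The first comparison asks which guidance genes differ where CDK16 was depleted. Log2 fold changes are of TMM-scaled CPM (prior count 2), and intervals are 95% Clopper-Pearson intervals that cover counting error only. In CDK16-sh1, 3 of 30 members (10%) were at least 2-fold lower than in scramble, against 6.86% of all genes tested, and 2 (6.67%) were at least 2-fold higher, against 4.33%. In CDK16-sh2, 6 members (20%) were at least 2-fold lower, against 7.62% of all genes, and 0 were higher, against 2.2%. Under library totals these were 8 and 0 members in CDK16-sh2, against 11.1% and 0.994% of all genes. The members' median log2 fold change was −0.32 for CDK16-sh1 and −0.42 for CDK16-sh2, where the medians of all genes were 0.00 and 0.02. Both hairpins are compared with the same scramble library, so their values share its counting and culture error and are given side by side. The members past 2-fold were the secreted ligands SEMA3C, SEMA3D, SEMA3B, SLIT2 and NTN4, the membrane-anchored ligand SEMA7A, and the receptors PLXNA2, NEO1, EPHA4 and EPHB2.

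**Figure D2:**
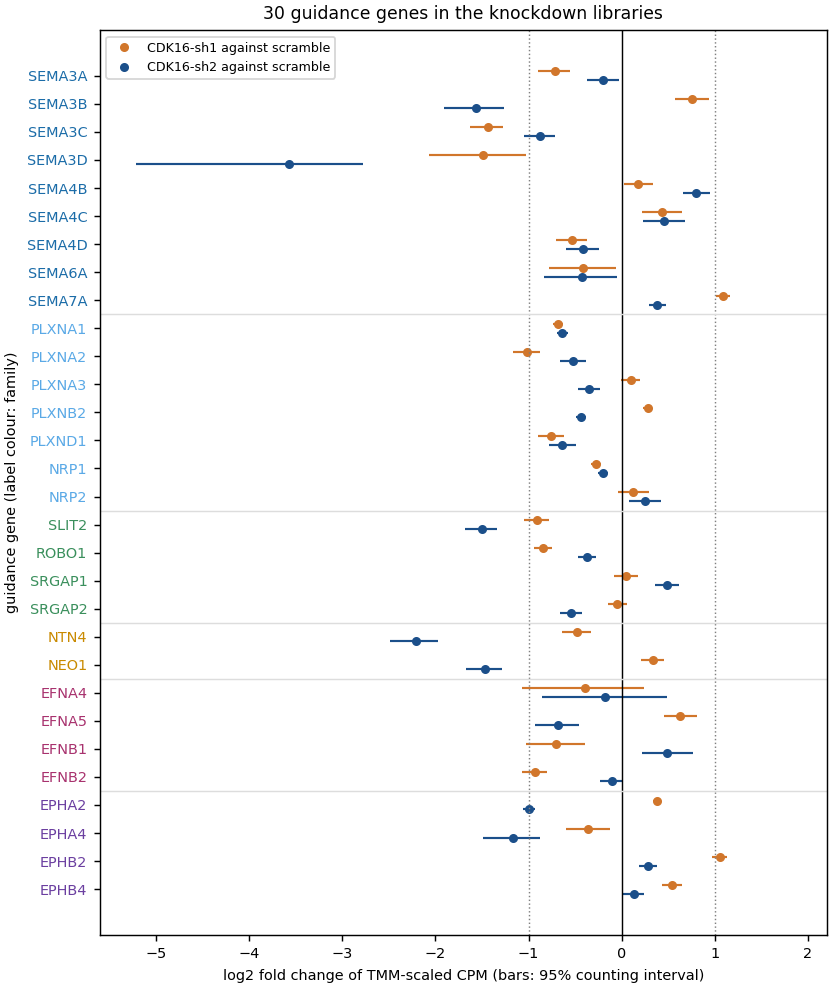
Log2 fold change against scramble of the 30 guidance genes whose mean reached 1 CPM, in CDK16-sh1 (orange) and CDK16-sh2 (blue); bars are 95% counting intervals and dotted lines mark 2-fold. SEMA3D and NTN4 lie farthest to the left in CDK16-sh2, and SEMA7A and EPHB2 pass 2-fold to the right in CDK16-sh1 alone.

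Of the secreted class 3 semaphorins, SEMA3C, SEMA3D and SEMA3B passed 2-fold in at least 1 hairpin library. SEMA3C, on chromosome 7 from 80742538 to 80922359 (GRCh38), had 859 counts in scramble and 382 and 433 in the hairpin libraries. The log2 fold changes were −1.44 (interval −1.62 to −1.27) and −0.88 (−1.05 to −0.71). Both hairpin libraries were thus below scramble, but under TMM scaling 2-fold was passed in CDK16-sh1 alone. Under library totals the value of SEMA3C in CDK16-sh2 was −1.07, also past 2-fold. SEMA3D, also on chromosome 7, from 84995553 to 85186855, had 110, 46 and 7 counts, with log2 fold changes of −1.49 (−2.06 to −1.03) and −3.57 (−5.22 to −2.78). It was past 2-fold in both hairpin libraries, but its mean was 1.98 CPM, and by the authors' RPKM with 0.1 added its value in CDK16-sh2 was −2.26. SEMA3B, which is deleted with its neighbourhood on chromosome 3 in some carcinomas, had 351, 717 and 109 counts. It was above scramble in CDK16-sh1, with a log2 fold change of 0.75 (0.57 to 0.94), and below it in CDK16-sh2, with −1.56 (−1.90 to −1.27). With a trend over GC content removed, these values of SEMA3B were 0.24 and −1.62. SEMA3A, the classic growth cone collapsing semaphorin, had 654, 480 and 529 counts, and neither difference reached 2-fold.

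SEMA7A, a GPI-anchored semaphorin that can act through integrins, had 1772 counts in scramble, 4563 with CDK16-sh1 and 2147 with CDK16-sh2. This gave log2 fold changes of 1.09 (1.01 to 1.17) and 0.38 (0.29 to 0.48). Across genes, fold changes in CDK16-sh1 went up with GC content (Pearson r = 0.48 over 12940 genes with a known GC content, which share the same libraries), and with that trend removed SEMA7A was 0.69 above scramble. Of the class 4 semaphorins, membrane ligands of plexins B and D, SEMA4B reached 0.80 in CDK16-sh2, SEMA4C 0.43 and 0.45, and SEMA4D −0.54 and −0.42. SEMA6A had 94 to 137 counts and values of −0.41 and −0.43.

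Netrin pathway genes were lower in CDK16-sh2. NTN4, a secreted netrin of basement membranes, lies on chromosome 12 from 95657807 to 95791152 and had 740 counts in scramble, 641 with CDK16-sh1 and 147 with CDK16-sh2. Against scramble it was at −0.48 (−0.64 to −0.33) for CDK16-sh1 and −2.21 (−2.49 to −1.97) for CDK16-sh2, on the log2 scale. NEO1, the netrin receptor neogenin on chromosome 15 from 73051710 to 73305206, had 903, 1379 and 302 counts, with values of 0.33 (0.21 to 0.46) and −1.47 (−1.67 to −1.28). For both genes the CDK16-sh2 library was the lowest. The CDK16-sh1 library was below scramble for NTN4, short of 2-fold, and above it for NEO1. SLIT2, the secreted ligand of Robo receptors on chromosome 4 from 20253260 to 20620561, had 1142, 734 and 373 counts. The log2 fold changes were −0.91 (−1.05 to −0.78) and −1.50 (−1.68 to −1.34), the second past 2-fold. Its receptor ROBO1 had 2116, 1425 and 1518 counts and values of −0.85 and −0.37. The Robo effectors SRGAP1 and SRGAP2, which act on small GTPases, ranged from −0.54 to 0.48. The lowest was SRGAP2 in CDK16-sh2, and its reads may be split with near-identical copies. These, SRGAP2B, SRGAP2C and SRGAP2D, had 738, 750 and 505 counts in scramble and 306, 334 and 138 in CDK16-sh2.

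Of the plexins and neuropilins, 1 passed 2-fold. PLXNA2, a semaphorin receptor on chromosome 1 from 208022242 to 208244320, was that gene of the 7 tested, with 1096, 655 and 710 counts and log2 fold changes of −1.02 (−1.16 to −0.88) and −0.52 (−0.66 to −0.38). With a trend over gene length removed, its first value was −0.67. With the GC trend removed, PLXNA1 (−1.10) and PLXND1 (−1.23) also passed 2-fold in CDK16-sh1. PLXNA1 had 6102, 4606 and 3645 counts, with values of −0.68 and −0.64, and PLXND1, a vascular semaphorin receptor, −0.75 and −0.64. NRP1 and NRP2, the neuropilins, lay between −0.28 and 0.25 in both libraries.

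Of the Eph receptors, EPHA4 was below and EPHB2 and EPHB4 were above scramble in both hairpin libraries, while EPHA2 was above it in 1 and below it in the other. EPHA2, which binds type A ephrins and is abundant in many carcinomas, lies on chromosome 1 from 16124337 to 16156087 and had 6664 counts in scramble, 10497 with CDK16-sh1 and 3100 with CDK16-sh2. Against scramble it was at 0.38 (0.33 to 0.42) with the first hairpin and −0.997 (−1.06 to −0.94) with the second, just short of 2-fold and outside the count of 6. Under library totals the second value was −1.19, and with the GC trend removed the first was −0.0077. EPHA4, which binds ephrins of both types, had 312, 294 and 128 counts, and its value in CDK16-sh2 was −1.17 (−1.49 to −0.88). EPHB2, a receptor of type B ephrins on chromosome 1 from 22710839 to 22921500, had 1781, 4476 and 2012 counts, with values of 1.05 (0.97 to 1.13) and 0.28 (0.19 to 0.38). Its value in CDK16-sh1 was 0.80 with the GC trend removed, which left 0 members 2-fold higher in that library. EPHB4 was 0.54 and 0.13 above scramble, the second turning to −0.07 under library totals. No ephrin passed 2-fold in either library under TMM scaling: their values ranged from −0.93 for EFNB2 to 0.63 for EFNA5, both in CDK16-sh1. With the GC trend removed, EFNB1 moved from −0.70 to −1.10 in CDK16-sh1, past 2-fold.

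The hairpins were also compared directly, without the scramble library. In CDK16-sh2, 6 of 30 members (20%) were at least 2-fold lower than in CDK16-sh1, against 8.68% of all genes, and 1 (3.33%) was at least 2-fold higher, against 6.53%. The 6 were SEMA3B, with a log2 ratio of −2.32 (interval −2.64 to −2.04), SEMA3D, NEO1 with −1.80 (−1.99 to −1.63), NTN4 with −1.73 (−2.01 to −1.48), EPHA2 with −1.38 (−1.43 to −1.32) and the ephrin EFNA5 with −1.32 (−1.54 to −1.11). EFNB1, a transmembrane ligand of EphB receptors, was the member on the other side, with 148 counts in CDK16-sh1, 261 in CDK16-sh2 and a log2 ratio of 1.19 (0.91 to 1.503). All 4 Eph receptors were lower in CDK16-sh2 than in CDK16-sh1, by a median of −0.79, whereas 3 of 4 ephrins were higher. Of all genes, 50.1% were lower. Among the 3 ephrins, EFNA4 had 40 and 36 counts and a ratio of 0.22 (−0.46 to 0.92), an interval that spans both signs. The GC trend was stronger for the first hairpin (Pearson r = 0.48) than for the second (0.13) and was not removed from these ratios. With it removed, EPHB4 was at 0.14 and 0.05 from scramble, the closest pair of the 4 receptors. The part of GC content in this contrast was not tested. Over all 30 members the median log2 ratio was 0.00, with 15 below and 15 above, and the median of all genes was 0.00 as well.

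**Figure D3:**
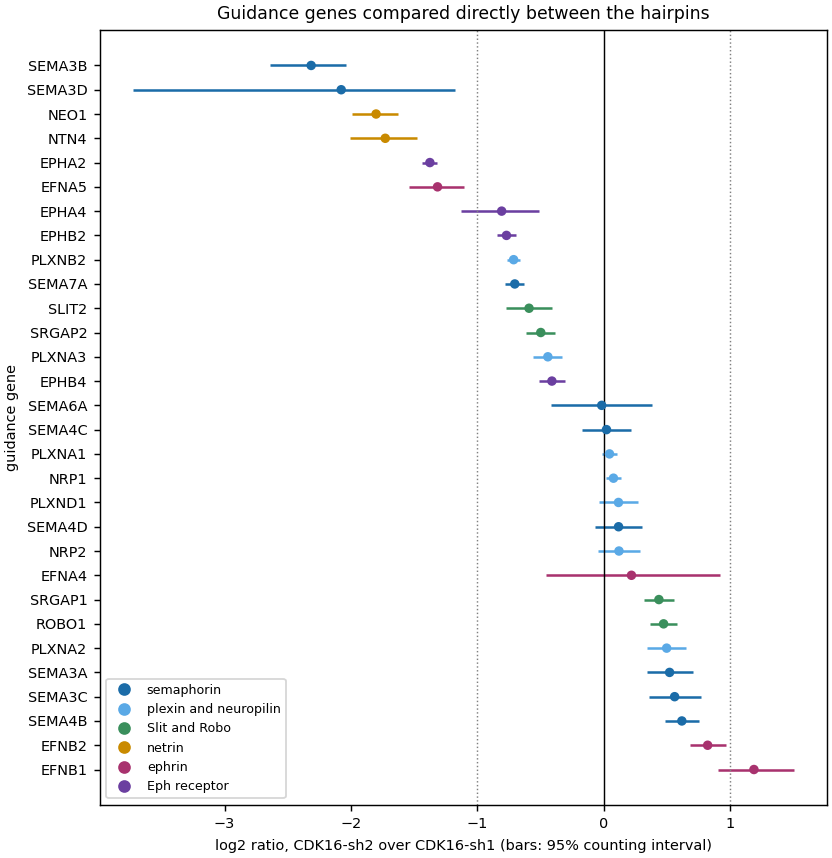
Log2 ratio of CDK16-sh2 over CDK16-sh1 for the 30 guidance genes, ordered by value and coloured by family; bars are 95% counting intervals and dotted lines mark 2-fold. SEMA3B, SEMA3D, both netrin pathway genes, EPHA2 and EFNA5 lie left of the 2-fold line, and EFNB1 alone lies right of it.

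With both hairpins taken as 1 group against scramble, so that the difference between them counts as the spread, 0 of 30 members were called at an adjusted p of 0.05 or less and a fold of 2 or more (quasi-likelihood test of edgeR, Benjamini-Hochberg adjustment over 15295 genes). The share of all genes called was 0%, DESeq2 also called 0 members, and the smallest adjusted p of any member was 1.00. An unadjusted p under 0.05 was reached by 4 members, SEMA3D, SLIT2, SEMA3C and NTN4, and by 382 of all genes. The test has 1 residual degree of freedom, and a result that misses its threshold does not show that the genes were alike.

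The second comparison asks which guidance genes differ under Reb. At 1 μM, 0 of 33 members were at least 2-fold lower and 0 were higher, against 1.92% and 1.28% of all genes. Member values ranged from −0.90 for SEMA3F (436 counts in DMSO and 236 at 1 μM) to 0.63 for EFNB2 (1537 and 2422 counts), with a median of −0.07. At 5 μM, 20 members (60.6%) were at least 2-fold lower than in DMSO, against 27.2% of all genes, and 1 (3.03%) was at least 2-fold higher, against 23.6%. The median log2 fold change of the members was −1.20, with 29 below and 4 above 0, while that of all genes was −0.07. Under library totals, which move the median of all genes by −0.68, 27 members were at least 2-fold lower against 43.4% of all genes and 1 was higher against 11.7%, and the members' median was −1.88. Both doses share the DMSO library.

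**Figure D4:**
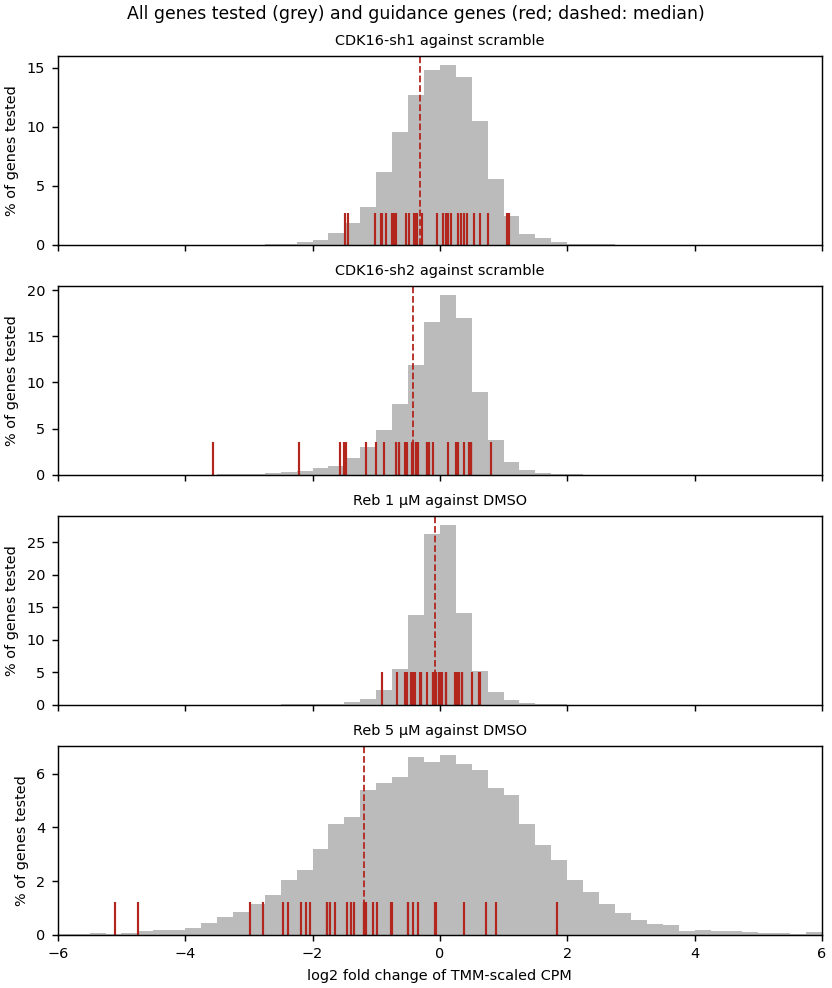
Histograms of log2 fold changes (bars 0.25 wide, percent of genes tested) of all genes in grey, with the guidance genes as red ticks and their median as a dashed line, for each treated library against its control; genes beyond the axis are not drawn. At 5 μM the grey histogram is wide and centred near 0 while the members' median is −1.20, and at 1 μM the ticks stay within 2-fold.

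Of the 20 lower members at 5 μM, 11 were receptors, 8 ligands and 1 an effector. Shares are to be read against 27.2% of all genes lower and 23.6% higher, or 43.4% and 11.7% under library totals. Of 14 receptors tested, 11 were at least 2-fold lower and 1 higher, with a median of −1.69. Of 17 ligands, 8 were at least 2-fold lower and 0 higher, with a median of −0.98, and of the effectors SRGAP1 and SRGAP2, 1 was lower. Under library totals, 12 receptors and 14 ligands were at least 2-fold lower. By family, the counts at least 2-fold lower were 5 of 10 semaphorins, 7 of 8 plexins and neuropilins, 3 of 4 Slit and Robo genes, 1 of 2 netrin pathway genes, 1 of 5 ephrins and 3 of 4 Eph receptors. Under library totals they were 9 semaphorins, 8 plexins and neuropilins and 3 ephrins, with the other families' counts as before.

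The Eph receptors spanned the widest range of the families at 5 μM. EPHB4, the receptor that marks veins and pairs with ephrin-B2, lies on chromosome 7 from 100802565 to 100827521 and had 3032 counts in DMSO, 2515 at 1 μM and 40 at 5 μM. On the log2 scale it was at −0.29 (−0.37 to −0.22) and −5.10 (−5.62 to −4.69) from DMSO, the second the lowest of the 33 members. The library at 1 μM was close to DMSO and the one at 5 μM far below both. EPHB2 had 6475, 6110 and 702 counts, and EPHA2 8925, 6710 and 1214 counts. Their values at 5 μM were −2.10 (−2.21 to −1.98) and −1.77 (−1.86 to −1.68). EPHA4, on chromosome 2 from 221418027 to 221574202, went the other way, with 164, 212 and 274 counts and log2 fold changes of 0.34 (0.05 to 0.65) and 1.83 (1.56 to 2.14). It was 1.15 above DMSO under library totals, and its mean level was 4.94 CPM, the lowest of the 4 receptors.

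**Figure D5:**
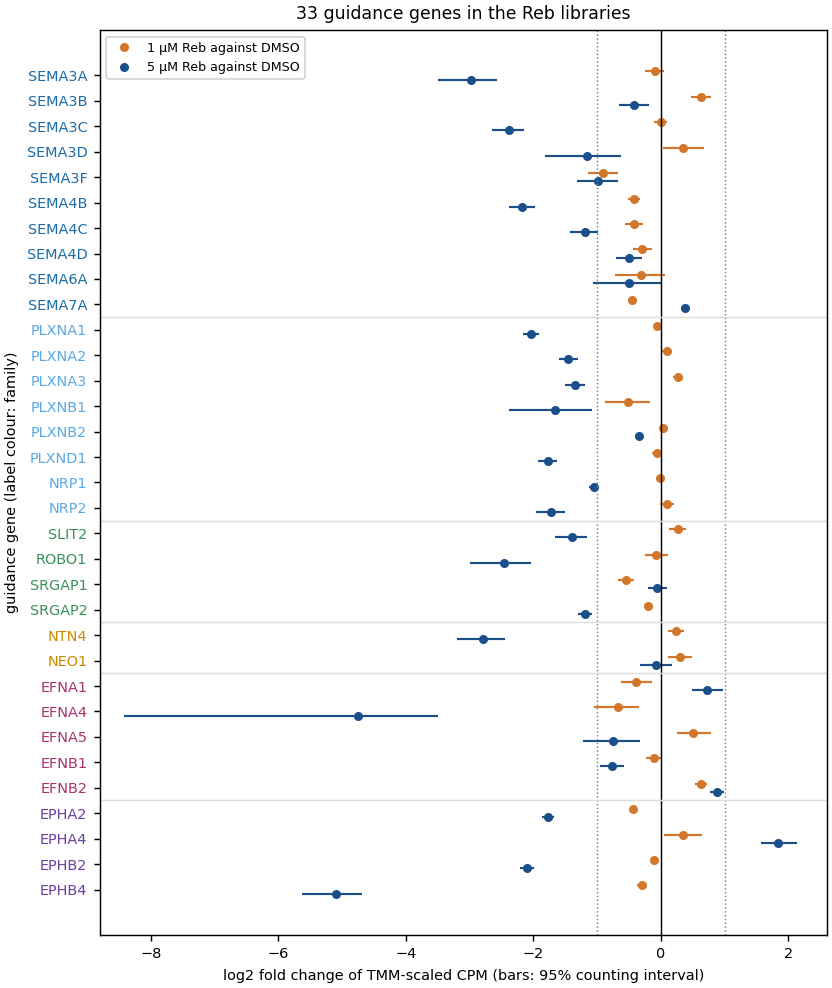
Log2 fold change against DMSO of the 33 guidance genes whose mean reached 1 CPM, at 1 μM Reb (orange) and 5 μM Reb (blue); bars are 95% counting intervals and dotted lines mark 2-fold. Orange points stay near 0, most blue points lie left of 2-fold with EPHB4 and EFNA4 farthest out, and EPHA4 is the one blue point right of it.

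Of the ephrins, the ligands of these receptors, 4 of 5 lay within 2-fold at 5 μM under TMM scaling and 2 of 5 under library totals. EFNB2, the partner of EPHB4, had 1537 counts in DMSO, 2422 at 1 μM and 1317 at 5 μM, with log2 fold changes of 0.63 (0.54 to 0.73) and 0.88 (0.78 to 0.99). EFNA1, a ligand of EPHA2, had 322, 250 and 248 counts, and its values were −0.39 and 0.73. Under library totals the values at 5 μM were 0.19 for EFNB2 and 0.04 for EFNA1, and with the GC trend removed that of EFNA1 was 1.22. EFNB1 was −0.76 and EFNA5 −0.76 from DMSO at 5 μM, and −1.45 and −1.43 under library totals. EFNA4 was past 2-fold, with 178, 112 and 2 counts, the last at or below the floor of 3 counts, and a log2 fold change at 5 μM of −4.74 (−8.42 to −3.49). Of its exon bases, 15.0% overlap another gene on the same strand.

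Of the semaphorins, 3 secreted forms (SEMA3A, SEMA3C and SEMA3D) and 2 membrane forms (SEMA4B and SEMA4C) were at least 2-fold lower at 5 μM. SEMA3A, on chromosome 7 from 83955777 to 84492724, had 768 counts in DMSO, 729 at 1 μM and 44 at 5 μM, with log2 fold changes of −0.10 (−0.25 to 0.05) and −2.99 (−3.49 to −2.58). SEMA3C had 1603, 1627 and 141 counts, and its value at 5 μM was −2.39 (−2.66 to −2.15). Both genes were level between DMSO and 1 μM and low at 5 μM. SEMA3D had 148, 192 and 30 counts and a value of −1.16 at 5 μM, SEMA3F just missed 2-fold with −0.98, and SEMA3B was −0.42, or 0.043 with the GC trend removed and −1.10 under library totals. SEMA4B had 2208, 1678 and 226 counts, with −2.17 (−2.38 to −1.98) at 5 μM, and SEMA4C had 1007, 763 and 203 counts, with −1.20 (−1.43 to −0.98), or −0.68 with the GC trend removed. SEMA7A had 4784, 3560 and 2889 counts, and its value of 0.38 at 5 μM turned to −0.31 under library totals. SEMA4D and SEMA6A were both −0.50 from DMSO, and −1.19 and −1.17 under library totals.

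Among the semaphorin receptors, PLXNB2 alone stayed within 2-fold at 5 μM, with 9097, 9494 and 3315 counts and a log2 fold change of −0.35 (−0.41 to −0.29) that was 0.15 with the GC trend removed and −1.04 under library totals. The plexins of class A had PLXNA1 counts of 5339, 5228 and 602, PLXNA2 counts of 2566, 2792 and 434, and PLXNA3 counts of 2278, 2788 and 415. Their values at 5 μM were −2.04 (−2.16 to −1.92), −1.45 (−1.61 to −1.31) and −1.35 (−1.50 to −1.20), the last of which was −0.89 with the GC trend removed. PLXND1 had 2969, 2885 and 401 counts and −1.78 (−1.93 to −1.63), and PLXNB1, with 168, 119 and 24 counts, −1.65 (−2.38 to −1.08). The neuropilins differed in size: NRP1, which also serves as a VEGF co-receptor, had 8820, 8895 and 1972 counts and −1.05 (−1.12 to −0.98), short of 2-fold with DESeq2 size factors (−0.99), and NRP2 had 1290, 1408 and 181 counts and −1.72 (−1.96 to −1.50). At 1 μM all 8 lay within −0.51 to 0.27. Under TMM scaling, all 8 were below both other libraries at 5 μM. Their counts were nearly level between DMSO and 1 μM, except for PLXNB1 with its few reads and PLXNA3. The latter was 0.27 (0.19 to 0.35) above DMSO at 1 μM.

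In the Slit and netrin systems, SLIT2, ROBO1 and NTN4 were low at 5 μM. SLIT2 had 878, 1070 and 154 counts and a log2 fold change of −1.40 (−1.66 to −1.15), and ROBO1 had 512, 496 and 42 counts and −2.47 (−2.99 to −2.04). NTN4 had 964, 1154 and 64 counts, with 0.24 (0.11 to 0.36) at 1 μM and −2.78 (−3.19 to −2.44) at 5 μM. NEO1 had 422, 526 and 186 counts and −0.07 (−0.33 to 0.18) at 5 μM, or −0.76 under library totals. SRGAP2 had 4025, 3572 and 821 counts and −1.18 (−1.30 to −1.08). It shares near-identical sequence with SRGAP2B, SRGAP2C and SRGAP2D, so reads may be split among them. These had 2758, 2640 and 311 counts in DMSO and 960, 795 and 98 at 5 μM. SRGAP1 was −0.05 from DMSO, or −0.74 under library totals.

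With both doses taken as 1 group against DMSO, 0 of 33 members were called (edgeR's quasi-likelihood test, Benjamini-Hochberg adjustment), against 0.0767% of all genes or 12 genes. None had an unadjusted p under 0.05 by this test, and DESeq2 called 0 members. When dose entered the fit as a linear term, log2 of the dose plus 1, 12 members were called lower, against 11.1% of all genes, and 1 was called higher, against 13.3%. The 12 were EPHB4 (adjusted p = 2.45e-05 by edgeR), EFNA4, SEMA3A, NTN4, SEMA3C, SEMA4B, EPHB2, PLXNA1, ROBO1, PLXND1, EPHA2 and NRP2. EPHA4 was the member called higher, with an adjusted p of 0.0361 by edgeR, and this call was lost under library totals, with an adjusted p of 0.384. Here the departure of 3 libraries from a straight line stands in for replicate spread, so these p-values do not measure variation between cultures.

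Genes of the same families that were not on the list were few at this depth. Of 41 such genes, 16 reached 1 CPM in the knockdown experiment and 14 in the Reb experiment. At least 2-fold lower and higher were 3 and 2 of 16 with CDK16-sh1, 5 and 0 with CDK16-sh2, 0 and 2 of 14 at 1 μM, and 7 and 1 of 14 at 5 μM. The shares of all genes lower and higher were 6.86% and 4.33%, 7.62% and 2.2%, 1.92% and 1.28%, and 27.2% and 23.6% in the same order. At 5 μM the Robo receptor genes ROBO4 (1836 counts in DMSO and 92 at 5 μM, log2 fold change −3.20) and ROBO3 (1335 and 209, −1.56) and the semaphorin SEMA6B (748 and 48, −2.83) were the lowest of those whose mean reached 5 CPM. RGMB, a ligand of neogenin, had 1408 counts in DMSO and 1397 at 5 μM and was 1.10 above DMSO. These 5 μM values and shares are under TMM scaling, and library totals move the median of all genes there by −0.68. Whether RGMB passes 2-fold therefore depends on the scaling. In CDK16-sh1 the receptor EPHA1, with 291 counts in scramble and 749 in the hairpin library, was 1.08 above scramble.

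Of the intracellular genes that act below these receptors, 44 of 49 were tested. At 5 μM under TMM scaling, 10 (22.7%) were at least 2-fold lower and 12 (27.3%) higher. These shares were near the 27.2% and 23.6% of all genes, and the median log2 fold change was 0.04. The kinases LIMK1 and LIMK2, which phosphorylate cofilin, were −2.32 and −2.33 from DMSO, and CRMP1, a mediator of semaphorin signals, −2.26. RHOA, the small GTPase of contraction, had 8870 counts in DMSO and 18692 at 5 μM and a log2 fold change of 2.18, the adaptor NCK1 2.44 and the CDK5 activator CDK5R1 2.66. In the knockdown libraries, 5 of 44 were at least 2-fold lower and 1 higher in CDK16-sh1, and 4 and 0 in CDK16-sh2, beside 6.86% and 4.33%, and 7.62% and 2.2%, of all genes. ROCK2, the kinase downstream of RHOA, had 2757 counts in scramble, 1289 with CDK16-sh1 and 676 with CDK16-sh2, with log2 fold changes of −1.37 and −1.92. In CDK16-sh1 the actin regulator ENAH was −1.53, DOCK1 −1.23 and the GTPase RRAS 1.55 from scramble, and in CDK16-sh2 the ephrin-cleaving protease ADAM10 was −1.35 and FARP2, a plexin-bound exchange factor, −1.24. At 1 μM, 0 of 44 reached 2-fold in either direction.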

How the data were processed

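RNA of 6 MDA-MB-231 libraries, 1 per condition, was sequenced by the authors as stranded mRNA libraries on a HiSeq X 10. The submitters' processing notes name Trimmomatic, featureCounts, Subread 1.5.1 and GRCh38, while the aligner, the annotation and the strand setting of the counting are not given in the sources used here. The deposited counts are whole-number reads per gene symbol, without normalization. The deposited RPKM are those counts divided by exon length and library total, and were used for levels and as an alternative.

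Counts of all genes were scaled by TMM (edgeR 4.0.16, R 4.3.3), and log2 CPM with a prior count of 2 was compared with the experiment's own control over genes whose mean reached 1 CPM. A 2-fold threshold and edgeR were taken from the study's methods. Intervals (95%, Clopper-Pearson) come from each gene's share between 2 libraries and cover counting error only, since each condition had 1 library. They treat reads as independent, although reads can be copies of 1 molecule, which would make the intervals too narrow. Depth was 25838443 to 50303269 counts, and a count of 3 was the floor. The edgeR fits were tested on simulated data. Members' coordinates are those of the count tables, GC content is from GENCODE 29 transcripts, and promoters are RefSeq's.

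The members, lists, motifs and tests were chosen with earlier results of these data known. Counts in every library are given for members whose mean reached 5 CPM with a 2-fold difference in 1 treated library, and for others where a family needed them. Of the other lists' genes, those named are the 3 lowest and 3 highest past 2-fold in each library whose mean reached 5 CPM. Alternatives were DESeq2 1.42.0, library totals, the authors' RPKM with 0.1 added, a prior count of 0.5, other filters and thresholds (1.5-fold and 4-fold), and removal of GC or length trends. No library was left out.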

Additional observations from a re-analysis of the deposited data

How the results depend on the processing

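With 1 library per condition, counting error is the sole error that could be measured, and differences of few reads (SEMA3D, EFNA4, PLXNB1) have wide intervals. Every median of the members kept its sign under the alternatives run. The median for CDK16-sh1 was −0.053 over members whose mean reached 5 CPM and −0.039 with the length trend removed, and that in CDK16-sh2 was −0.62 under library totals and −0.24 with the length trend removed. At 5 μM Reb the median was −1.88 under library totals, −1.78 by the authors' RPKM and −1.73 under totals without mitochondrial transcripts, an alternative chosen after seeing the data. With the GC trend removed, 6 members were 2-fold lower and 0 higher in CDK16-sh1 and 2 were higher at 5 μM, where 2 were also higher with the length trend removed and 0 among members of at least 5 CPM, since EPHA4 was then not tested. Without a filter, 4 were higher in CDK16-sh1 and 1 at 1 μM, where genes of few reads enter. At 1.5-fold the members lower and higher were 10 and 4 with CDK16-sh1, 11 and 1 with CDK16-sh2, 2 and 2 at 1 μM, and 3 were higher at 5 μM. At 4-fold, 0 and 0 were lower and higher with CDK16-sh1, 2 were lower with CDK16-sh2, and 9 and 0 were lower and higher at 5 μM. Shares of all genes are not given for these filters, trends and thresholds. The counts therefore show how far the setting moves them and are no result about the members. The fit of dose as a linear term called 13 members, and 15 under library totals, also chosen after seeing the data, where both doses as 1 group gave 0. Of all 15655 genes, the dose fit called 1744 lower and 2088 higher, and 2196 and 704 under library totals. The cause of these shifts was not tested, except where the construction names it. No paired analysis was possible because every condition has 1 library.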
